A study of Homo sapiens with 20 samples.

Results

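MYC, its partner MAX and related proteins form a small family of transcription factors. The transcripts of 10 of its genes (MYC, MYCN, MAX, MXD1, MXD3, MXD4, MXI1, MNT, MLX and MGA) were followed here across all 10 conditions of the series. The genes were taken by symbol from the 57773 genes in each deposited count table, and the set was chosen by measured values: the MYC transcript was already known to move in opposite directions when EHMT1 was silenced and when it was induced. Its changes in those contrasts are therefore given as a description, with no test. Of the 10 genes, 9 had reads in both tables, and MYCN had 0 counts in all 20 samples, where a count of 0 allows up to 3 counts per sample.

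EHMT1 (GLP) is a histone H3 lysine 9 methyltransferase, and all samples were LNCaP, a human prostate adenocarcinoma cell line of luminal type. In the first experiment parental LNCaP cells were transfected for 2 days with 20 nM of a non-targeting siRNA (siNTC, n = 2) or of an siRNA pool against EHMT1 (siEHMT1, n = 2). In the second, 4 lines (LNCaP-tet-EHMT1) carried a lentiviral, doxycycline-inducible, V5-tagged EHMT1 transgene beside their own EHMT1 gene. The transgene was either WT or had lysine-to-arginine changes (K450R, K451R or K450RK451R). The lines received vehicle (Veh), for a time that the labels do not give, or 0.25 µg/mL doxycycline (Dox) for 2 days. Each of these 8 conditions has 2 columns. No line with an empty vector and Dox was analysed here, so the effects of Dox and of the transgene cannot be told apart, and the sources used here do not say whether a line is 1 clone or a pool.

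MYC binds DNA at E-boxes as a heterodimer with MAX and activates genes of ribosome biogenesis, nucleotide synthesis and the cell cycle. The MXD proteins (MXD1, MXD3, MXD4), MXI1 and MNT compete with MYC for MAX and recruit the SIN3-HDAC corepressor to the same sites, so the balance among these partners bears on the same target genes. MLX pairs with the glucose-responsive factors MLXIP and MLXIPL, and MGA joins MAX in an E2F6-containing repressor complex in which EHMT1 and EHMT2 have been found. MYC is a common driver of prostate cancer.

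The siRNA samples held 5593400 to 12438006 counts. The paired columns of the stable lines agreed within sampling noise (chi-square per degree of freedom 0.995 to 1.02, against 61.6 for siNTC and 13.4 for siEHMT1), so they were summed and each condition counted as 1 sample of 8436791 to 12407739 counts. EHMT1 read 87.9 and 82.8 CPM (the normalised read count, scaled to library size by TMM) in siNTC and 29.2 and 30.7 CPM in siEHMT1, and it was 7.48-fold to 10.4-fold higher with Dox than with Veh. All 9 luminal prostate markers exceeded 1 CPM in every sample, whereas the basal, neuroendocrine and leukocyte marker lists summed to at most 1.99 CPM and the fibroblast list, with 1 gene above 1 CPM, to 15.3 to 40.9 CPM. Nothing in the labels says that samples of a group came from separate cultures, so p-values may measure technical spread only.

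**Figure D1:**
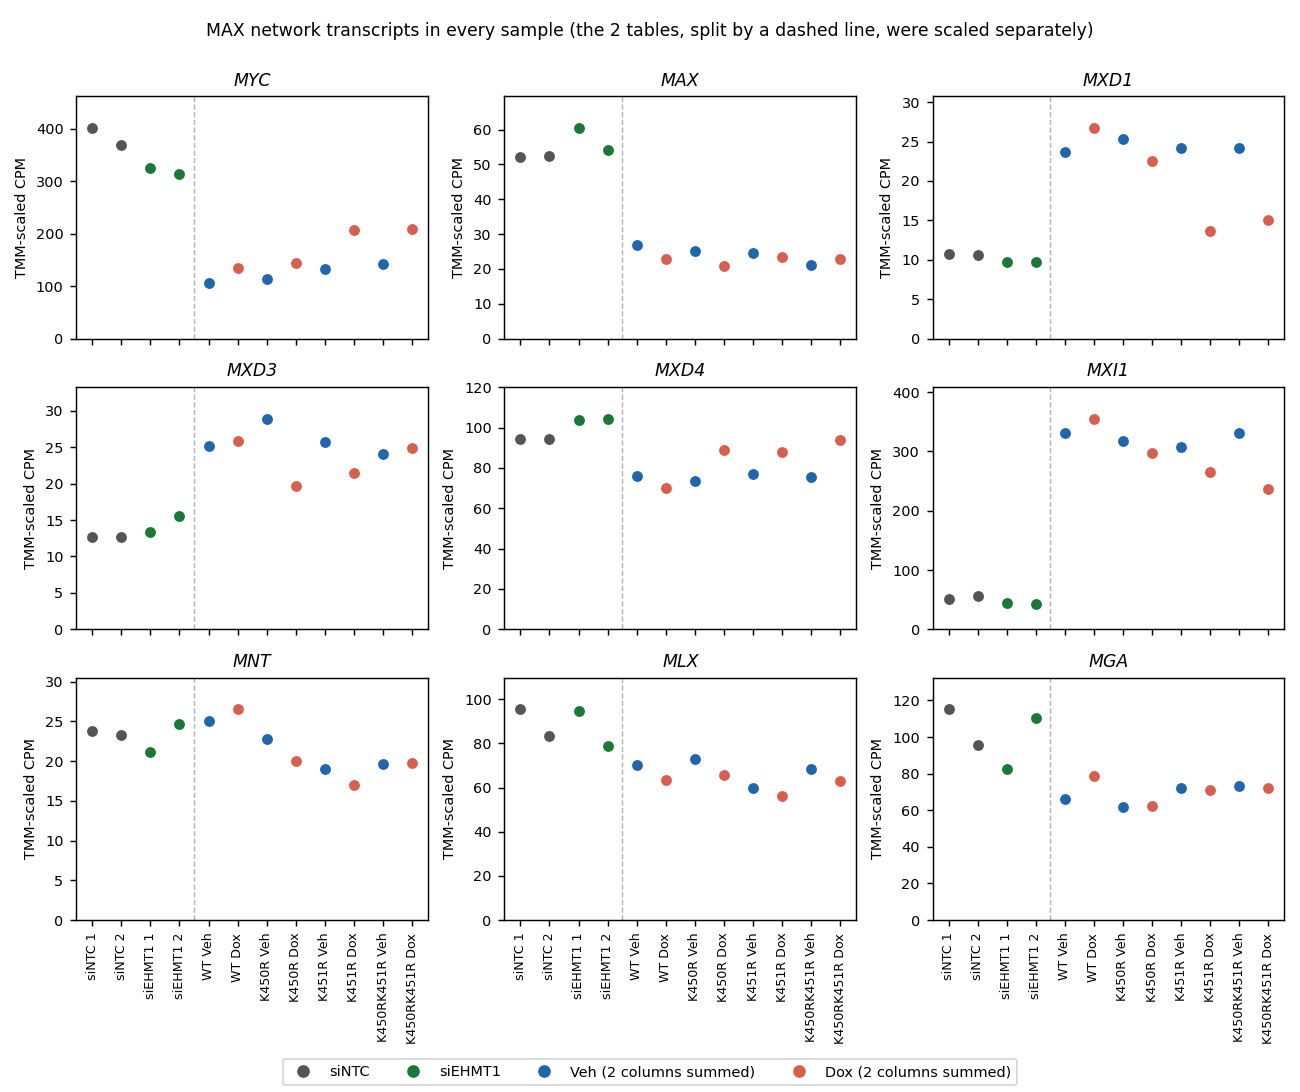
Normalised level (TMM-scaled CPM, linear axes from 0) of 9 members in the 4 siRNA samples and the 8 stable-line conditions, 1 point per sample or summed condition, with the dashed line between the 2 separately scaled tables. MYC is lower with siEHMT1 and higher with Dox than with Veh in each line, while MXI1 stands near 300 CPM in the stable lines and near 50 CPM in the siRNA samples.

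MYC (ENSG00000136997, GRCh37 chromosome 8, 128747680 to 128755197, plus strand) was lower with silencing and higher with induction. It read 402 and 370 CPM in the siNTC samples and 326 and 313 CPM in the siEHMT1 samples, so both silenced samples lay below both controls. The log2 fold change was -0.28 (SE 0.087, n = 2 and 2), or 0.824 of the control level.

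In the stable lines MYC read 107, 113, 134 and 141 CPM in the Veh conditions of WT, K450R, K451R and K450RK451R, and 134, 143, 207 and 209 CPM in their Dox conditions. Each line was higher with Dox, but the Veh and Dox conditions overlapped as groups, because the K450RK451R line with Veh stood above the WT line with Dox. The log2 ratio of Dox to Veh was 0.33 in WT (95% counting interval 0.22 to 0.45) and 0.34 in K450R (0.22 to 0.46). It was 0.63 in K451R (0.53 to 0.74) and 0.56 in K450RK451R (0.47 to 0.66). The intervals of the last 2 lines lay above those of the first 2, but they cover counting error only, and with 1 sample per condition the difference between lines has no replicate check. Averaged over the 4 lines, the log2 fold change was 0.46 (SE 0.061), or 1.38-fold.

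A rise or fall by a log2 ratio of 0.32 or more, the fold used for single lines, was not rare among all genes. It was reached by 26.5% of the genes in WT, 30% in K450R, 29.4% in K451R and 32.4% in K450RK451R. Among genes with at least 200 counts in the line, a class that holds MYC, the shares were 11.2%, 14.3%, 16.3% and 18.9%. MYC passed this ratio upward in 4 of 4 lines, which is a description, since MYC was chosen for this rise. Its margin in WT and K450R was small: the log2 ratio was 0.28 in K450R with upper-quartile scaling, and without column 2 it was 0.27 in K450R and 0.31 in WT. MXD1 passed it downward in 2 lines, and MXD3 and MXI1 in 1 each.

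MAX, with which MYC binds DNA, read 52.1 and 52.3 CPM in siNTC and 60.5 and 54.0 CPM in siEHMT1. The log2 fold change was 0.13 (SE 0.107, adjusted p = 0.754 by the quasi-likelihood test of edgeR, adjusted by Benjamini-Hochberg over all genes). Both silenced samples were above both controls. In the lines it read 26.9, 25.2, 24.4 and 21.2 CPM with Veh and 22.9, 20.8, 23.5 and 23.0 CPM with Dox, in the order WT, K450R, K451R and K450RK451R. The groups overlapped, and the shared log2 fold change of -0.12 (SE 0.105) did not pass the same edgeR test (adjusted p = 0.672).

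**Figure D2:**
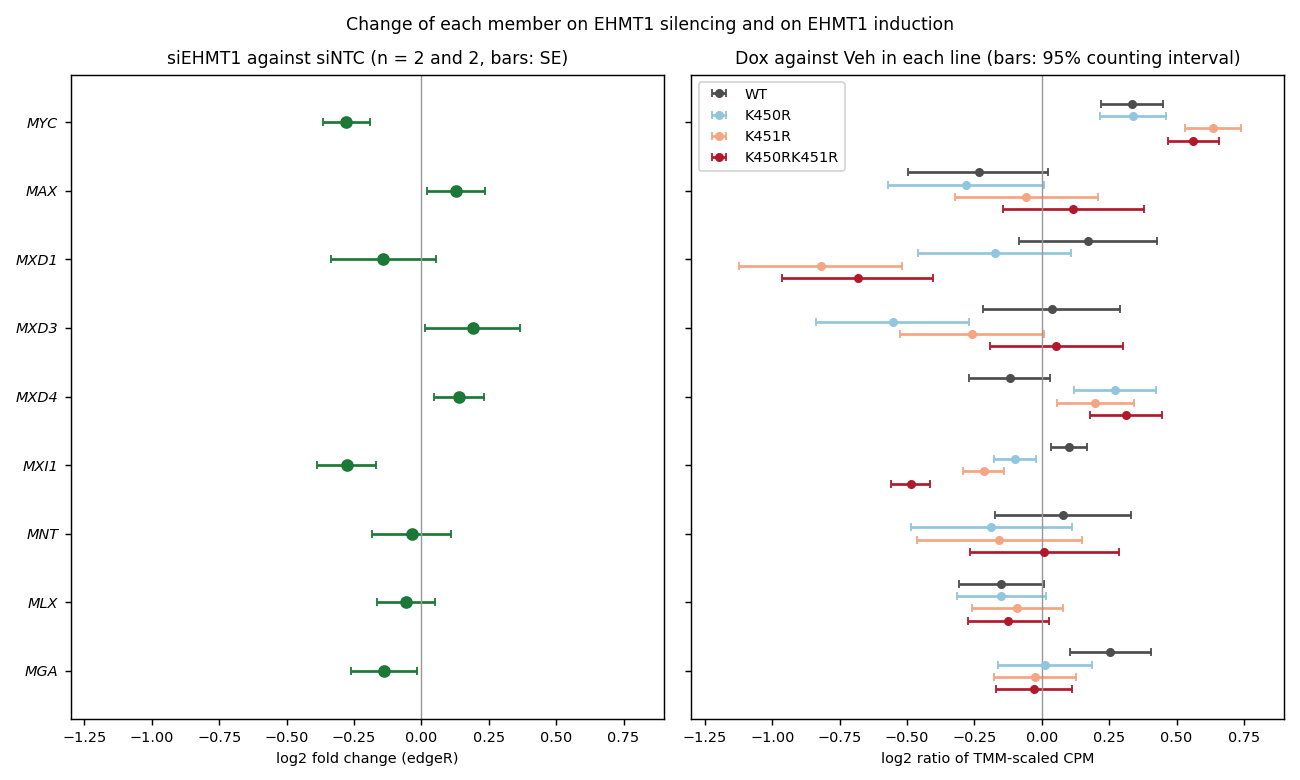
Log2 fold change of 9 members with siEHMT1 (left, edgeR, bars are SE, n = 2 and 2) and log2 ratio of Dox to Veh in each of the 4 lines (right, bars are 95% counting intervals, 1 summed sample per condition). MYC lies left of 0 with silencing and right of 0 in each line, MXD1 and MXI1 lie furthest left in K451R and K450RK451R, and MXD4 lies right of 0 in the 3 mutant lines.

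Across all genes, 0.124% of the 14532 tested were called at an adjusted p under 0.05 in the siRNA comparison. For the Dox effect shared by the 4 lines, 0.553% of 14105 were called higher and 1.47% lower. Of the 8 members tested beside MYC, 0 were called in either comparison by edgeR's quasi-likelihood test, 0 in the siRNA samples by DESeq2 or limma-voom, and 0 over the lines by those tools. At an unadjusted p under 0.05, 1 passed with siEHMT1 (MXI1) and 3 with Dox (MXD1, MXI1 and MXD4). The siEHMT1 and siNTC samples did not overlap for 6 of 9 members (MYC, MAX, MXD1, MXD3, MXD4 and MXI1), or 5 of 8 without MYC, whose change chose the set, where 39.4% of all genes did not overlap. The Veh and Dox conditions did not overlap for 0 of 9 members, against 4.55% of all genes.

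MXI1, a MAX partner that opposes MYC, read 50.3 and 55.4 CPM in siNTC and 43.8 and 43.1 CPM in siEHMT1. Both silenced samples lay below both controls, and the log2 fold change of -0.28 had the same value as that of MYC to 2 decimals (SE 0.111). The MXI1 change did not pass edgeR's test (adjusted p = 0.448). Since MYC was given no test, this result does not set MXI1 apart from MYC.

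With Veh, MXI1 read 331, 318, 307 and 332 CPM in WT, K450R, K451R and K450RK451R. With Dox it read 355, 297, 265 and 237 CPM in the same order, so the WT line was higher and the mutant lines lower. The log2 ratios were 0.10 in WT (95% counting interval 0.033 to 0.17), -0.098 in K450R (-0.18 to -0.020), -0.22 in K451R (-0.29 to -0.14) and -0.49 in K450RK451R (-0.56 to -0.41). Of these 4, the change in K450RK451R alone passed the log2 ratio of 0.32. The effect shared by the lines was -0.18 (SE 0.068, adjusted p = 0.190 by edgeR's quasi-likelihood test), and without the WT line it was -0.28 and called (adjusted p = 0.00988). That fit without WT called 472 genes in all, beside 286 over the 4 lines. With K450R, K451R or K450RK451R left out instead, MXI1 was not called (adjusted p = 0.337, 0.493 and 0.734 by edgeR's test).

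MXD1 (MAD1), a partner known to rise as cells differentiate, read 10.8 and 10.6 CPM in siNTC and 9.71 and 9.72 CPM in siEHMT1 (adjusted p = 0.879 by edgeR's test). In the Veh conditions of the lines it was even, at 23.7, 25.4, 24.2 and 24.2 CPM. With Dox it read 26.7 CPM in WT and 22.5 CPM in K450R, but 13.7 CPM in K451R and 15.1 CPM in K450RK451R. The last 2 stood below all Veh conditions, with log2 ratios of -0.82 (95% counting interval -1.12 to -0.52) and -0.68 (-0.96 to -0.40). These were the 2 lines with the larger MYC ratios. The shared effect was -0.37 (SE 0.131, adjusted p = 0.157 by edgeR's test), and it was -0.57 and called (adjusted p = 0.0128) without the WT line. With K450R, K451R or K450RK451R left out instead, MXD1 was not called (adjusted p = 0.266, 0.655 and 0.491 by edgeR's test).

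MXD4 (MAD4), another MAX partner that recruits SIN3, read 94.3 and 94.6 CPM in siNTC and 103.9 and 104.5 CPM in siEHMT1, and both silenced samples were above both controls (log2 fold change 0.14, SE 0.093, adjusted p = 0.676 by edgeR's test). In the lines it read 75.9, 73.8, 76.8 and 75.7 CPM with Veh and 69.9, 89.0, 88.1 and 93.9 CPM with Dox. The 3 mutant lines with Dox stood above all 4 Veh conditions and the WT line with Dox below them. The shared log2 fold change was 0.16 (SE 0.070, adjusted p = 0.276 by edgeR's test), and without the WT line it was 0.25 and called (adjusted p = 0.0438). With K450R, K451R or K450RK451R left out instead, MXD4 was not called (adjusted p = 0.612, 0.582 and 0.658 by edgeR's test).

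The log2 ratios of MXI1, MXD1 and MXD4 had one sign in WT and the other in the mutant lines. For MXI1 no counting interval included 0, but those of MXD1 in WT (0.17, -0.083 to 0.43) and K450R (-0.17, -0.46 to 0.11) and of MXD4 in WT (-0.12, -0.27 to 0.031) did. The difference itself was tested, a test added after the values had been seen on genes picked for this pattern. The mutant lines' log2 Dox effect minus that of WT was -0.74 for MXD1 (SE 0.258), -0.38 for MXI1 (SE 0.127) and 0.37 for MXD4 (SE 0.146). The adjusted p-values of this interaction in edgeR's quasi-likelihood fit were 0.527, 0.474 and 0.584, so the difference was not called for any of the 8 members tested, where 0.142% of all genes were called and 986 of 14105 had an unadjusted p under 0.05. WT is 1 line in this contrast. With 1 mutant line left out, the MXI1 difference was -0.47 without K450R (adjusted p = 0.00791 by edgeR's test), -0.40 without K451R (adjusted p = 0.334) and -0.27 without K450RK451R (adjusted p = 0.659), so a call was made in 1 of these 3 fits.

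MXD3 (MAD3), which is expressed in S phase of proliferating cells, read 12.7 CPM in both siNTC samples and 13.4 and 15.5 CPM in siEHMT1. In the lines it read 25.1, 28.9, 25.8 and 24.0 CPM with Veh and 25.8, 19.7, 21.5 and 24.9 CPM with Dox. The value in K450R alone passed the log2 ratio of 0.32 (log2 ratio -0.55, 95% counting interval -0.84 to -0.27), and neither fit called the gene (adjusted p = 0.784 and 0.497 by edgeR's test). In the annotation MXD3 overlaps PRELID1 on the opposite strand and RAB24 on the same strand. The sources used here do not say whether counting used strand, so reads from PRELID1 may not be separable. Strand would not separate reads shared with RAB24. Likewise MAX and FNTB, and MLX and PSMC3IP, overlap on opposite strands, and MXD1 and SNRNP27 on the same strand.

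MNT, the antagonist that is present in both resting and dividing cells, read 23.8 and 23.3 CPM in siNTC, 21.2 and 24.7 CPM in siEHMT1, and between 17.0 and 26.5 CPM in the 8 stable-line conditions, with adjusted p-values of 0.974 and 0.849 in the 2 edgeR fits. The siRNA groups overlapped, and so did Veh and Dox.

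MLX, the partner of the glucose sensors, read 95.4 and 83.4 CPM in siNTC and 94.7 and 78.9 CPM in siEHMT1, and the groups overlapped. With Veh it read 70.3, 73.0, 59.7 and 68.5 CPM and with Dox 63.4, 65.8, 56.0 and 62.9 CPM in the line order used above. The value was lower with Dox in 4 of 4 lines, by log2 ratios between -0.15 and -0.092, and each counting interval included 0. This direction depended on the scaling: with total count scaling the ratio was 0.020 in K451R and 0.0072 in K450RK451R, and without column 2 it was 0.015 in K451R. The shared effect was -0.14 (SE 0.067, adjusted p = 0.368 by edgeR's test).

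MGA read 115.1 and 95.7 CPM in siNTC and 82.4 and 110.3 CPM in siEHMT1, a spread within each group as wide as the difference between them. In the lines it read 66.0, 61.8, 72.2 and 73.3 CPM with Veh and 78.7, 62.2, 70.9 and 71.9 CPM with Dox. The value in WT (log2 ratio 0.25, 95% counting interval 0.11 to 0.40) stood apart from ratios near 0 in the mutant lines, and the shared effect of 0.047 did not pass edgeR's test (adjusted p = 0.827).

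Promoter sequences from RefSeq (GRCh38.p14, the 250 bases before a transcription start) were read for 9 of the 10 genes, with 14 starts in all. The promoter of MYC was not analysed here. They are shown for the members whose promoter holds the E-box CACGTG, the sequence that MYC-MAX and MXD-MAX dimers bind, which reads the same on both strands. It was found upstream of 1 start each of MXD4, MNT and MLX, and it is present in 6.34% of 35116 promoters of this length. The E-box, in capitals, begins 238 bases before the start in MXD4 (chr4:2262110-2262359, minus strand), 193 bases before it in MNT (chr17:2401061-2401310, minus strand) and 50 bases before it in MLX (chr17:42566850-42567099, plus strand).
MXD4: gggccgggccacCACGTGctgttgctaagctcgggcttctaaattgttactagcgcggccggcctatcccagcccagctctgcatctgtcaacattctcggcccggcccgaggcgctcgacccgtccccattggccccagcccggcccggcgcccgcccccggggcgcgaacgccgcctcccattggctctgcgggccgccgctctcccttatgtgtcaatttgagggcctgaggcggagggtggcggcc
MNT: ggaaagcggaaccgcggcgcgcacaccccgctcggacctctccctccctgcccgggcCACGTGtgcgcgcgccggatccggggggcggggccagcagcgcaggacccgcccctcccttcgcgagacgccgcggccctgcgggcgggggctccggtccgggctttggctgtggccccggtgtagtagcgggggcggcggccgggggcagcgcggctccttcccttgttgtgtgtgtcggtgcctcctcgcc
MLX: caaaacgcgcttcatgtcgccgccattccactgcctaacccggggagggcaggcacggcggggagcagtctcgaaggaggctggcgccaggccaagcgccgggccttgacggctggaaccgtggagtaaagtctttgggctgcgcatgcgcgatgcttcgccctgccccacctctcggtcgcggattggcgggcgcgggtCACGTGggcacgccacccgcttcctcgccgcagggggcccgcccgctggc

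The 3 members with the motif did not move together: with Dox, MXD4 was higher in 3 of 4 lines, MLX was lower in 4 of 4 (2 of 4 with total count scaling) and MNT was mixed. A match to the letters is a description and not a measured binding site.

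The 2 experiments were set side by side after their values had been seen. They differ in table, cells, transfection and serum, so the sources of any difference cannot be told apart, and no test was made. Of 13617 genes, 69.3% did not overlap between the siNTC samples and the Veh conditions, and 22.3% differed at least 2-fold in mean. Among the 9 members, 8 did not overlap (all but MNT) and 5 differed at least 2-fold. MYC and MAX were lower in the Veh conditions, by log2 differences of -1.64 and -1.09, and MXD1, MXD3 and MXI1 were higher, by 1.19, 1.03 and 2.61. The MXI1 difference was exceeded by 0.698% of the genes, whereas 96.2% of the genes lay above MYC. The summed level of the 9 luminal markers was 5995 to 6301 CPM in the siRNA samples and 11531 to 12872 CPM in the stable lines, and its part in these differences was not tested.

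Levels per length (CPM per kilobase of the canonical transcript) give an order of the members that depends in part on the length used. In siNTC MYC stood first at 103.7 ± 6.01 (SD, n = 2), followed by MLX at 37.9 ± 3.60, MAX at 26.0 ± 0.077 and MXD4 at 24.4 ± 0.054. MXI1 followed at 15.2 ± 1.05, MXD3 at 11.9 ± 0.029, MGA at 8.64 ± 1.12, MNT at 4.78 ± 0.066 and MXD1 at 1.92 ± 0.028. No neighbours in this order overlapped within their SDs. Over the union of all annotated exons, a longer measure, the order changed: MYC (63.2) and MLX (21.0) stayed first, followed by MXD4 at 13.7, MXI1 at 8.94, MAX at 8.34 and MGA at 5.25 CPM per kilobase. MNT (2.704) and MXD3 (2.68) came next, and MXD1 (1.68) stayed last.

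In the Veh conditions MXI1 stood first, at 92.8 ± 3.40 (SD, n = 4 lines). MYC followed at 33.3 ± 4.40 and MLX at 28.8 ± 2.44, and these 2 were within their SDs of each other. MXD3 read 24.3 ± 1.97, MXD4 19.5 ± 0.329, MAX 12.2 ± 1.2 and MGA 5.60 ± 0.447. MNT and MXD1 both read 4.39 and could not be ordered on this length. By union length MXI1 (54.5), MYC (20.3) and MLX (15.95) kept their places, MXD4 (11.0) stood above MXD3 (5.47), and MXD1 (3.84) stood above MNT (2.49), with MAX at 3.91 and MGA at 3.40.

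The per-length ratio of MYC to MXI1 was 7.46 and 6.23 in siNTC and 6.94 and 6.78 in siEHMT1, so silencing left it between the control values. In the Veh conditions it was 0.300, 0.333, 0.405 and 0.397 for WT, K450R, K451R and K450RK451R. With Dox it was 0.353, 0.451, 0.730 and 0.822, higher than Veh in 4 of 4 lines. Against the summed per-length level of the antagonists MXD1, MXD3, MXD4, MXI1 and MNT, MYC stood at 1.88 and 1.69 in siNTC and 1.51 and 1.39 in siEHMT1. The same ratio was 0.194 to 0.260 in the Veh conditions and 0.233, 0.285, 0.445 and 0.457 with Dox. The siRNA groups did not overlap on this ratio, and every stable-line value lay below every siRNA value. MYC, the numerator of both ratios, was chosen for its moves, so the direction of the ratios with silencing and with Dox is a description. The summed antagonist level itself overlapped between the siRNA groups, at 57.5 and 59.0 in siNTC and 58.0 and 60.7 in siEHMT1.

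**Figure D3:**
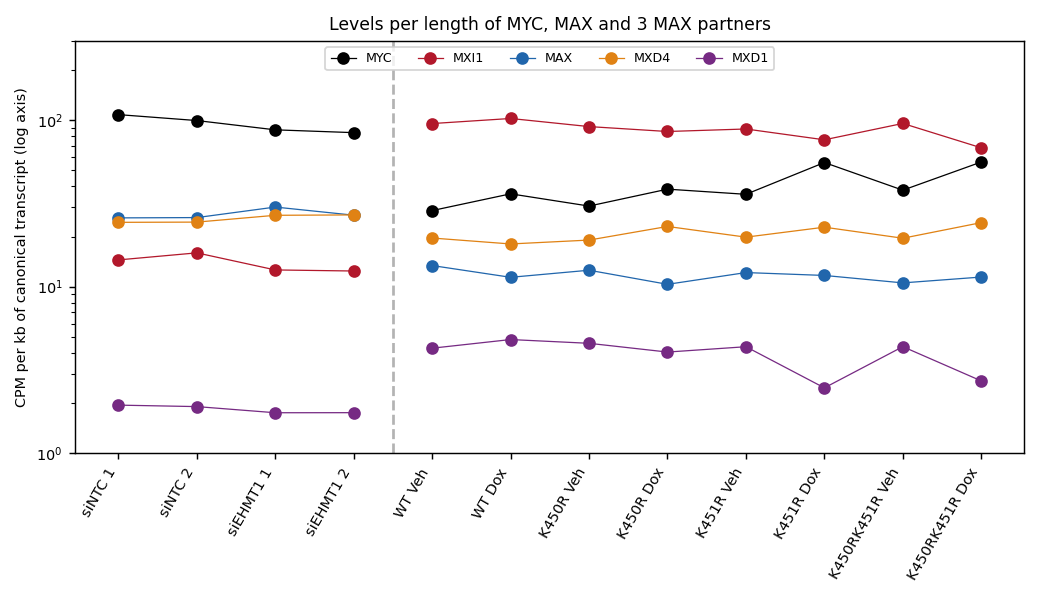
Level per kilobase of canonical transcript (TMM-scaled CPM per kb, log axis) of MYC, MXI1, MAX, MXD4 and MXD1 in each siRNA sample and stable-line condition, joined within each table to guide the eye. MYC lies above MXI1 in the 4 siRNA samples and below it in all 8 stable-line conditions, where the gap narrows with Dox in each line.

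MXI1 is a known target of the hypoxia-inducible factors (HIF), so 6 other known HIF targets were read beside it. They were chosen after values had been seen, theirs included, so their shared direction between the experiments is no separate evidence. ANKRD37 stood 62.1-fold and CA9, a cell-surface carbonic anhydrase, 41.2-fold higher in CPM, although CA9 was below 1 CPM in siNTC. VEGFA, the angiogenic growth factor, was 13.2-fold higher, the mitophagy gene BNIP3 6.15-fold, the kinase gene PDK1 3.88-fold and the prolyl hydroxylase gene EGLN3 2.77-fold. MXI1 itself was higher by 2.61 on the log2 scale, as given above.

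With Dox, ANKRD37 read log2 ratios of -0.0059 in WT, -0.52 in K450R, -0.96 in K451R and -0.88 in K450RK451R, with values below those of Veh in the 3 mutant lines, where MXI1 was also lower. CA9 did not share this order, with -0.64 in WT, -0.40 in K450R, -0.063 in K451R and -0.28 in K450RK451R. VEGFA was lower in 4 of 4 lines (-0.28, -0.49, -0.54 and -0.38). The ratios of PDK1 (-0.13 to 0.054), BNIP3 (-0.12 to 0.022) and EGLN3 (-0.13 to 0.21) were smaller. The part of oxygen supply, medium or line in the MXI1 level was not tested.

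For reference, the upstream sequence of the 2 MXI1 starts that hold a core HIF motif is shown, with ACGTG or GCGTG on either strand in capitals. The middle start is preceded by chr10:110209981-110210230 and the last by chr10:110225746-110225995, both on the plus strand of GRCh38.p14. The core is contained in each E-box and occurs in 43.2% of all promoters of this length, so its presence does not set MXI1 apart.
MXI1, middle start: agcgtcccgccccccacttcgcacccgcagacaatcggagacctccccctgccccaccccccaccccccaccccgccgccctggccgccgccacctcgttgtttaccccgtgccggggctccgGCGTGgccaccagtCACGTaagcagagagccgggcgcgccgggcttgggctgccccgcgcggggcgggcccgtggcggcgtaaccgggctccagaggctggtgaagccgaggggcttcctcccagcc
MXI1, last start: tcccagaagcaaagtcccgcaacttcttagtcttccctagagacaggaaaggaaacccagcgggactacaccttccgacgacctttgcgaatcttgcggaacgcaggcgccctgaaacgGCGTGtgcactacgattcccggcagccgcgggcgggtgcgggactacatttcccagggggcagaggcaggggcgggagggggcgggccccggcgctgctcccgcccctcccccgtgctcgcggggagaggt

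The lists below were written with earlier results of these data known. With siEHMT1, 0 of their 105 tested genes were called by edgeR, DESeq2 or limma-voom and 15 had an unadjusted p under 0.05 in edgeR, beside 1328 of 14532 genes in all. Between 1 and 4 list genes were called when any 1 siRNA sample was left out. With Dox, 5 of 104 were called by edgeR, beside 286 of 14105 genes in all. An unadjusted p under 0.05 was reached by 18 of the 104, beside 1998 of 14105. Of 34 genes known to be induced by MYC, 0 were called with siEHMT1 by edgeR, and 26 had a negative and 8 a positive log2 fold change. Their median was -0.097, beside -0.0022 over all genes. The values furthest from 0, none of which passed the test, were -0.66 for the ribosome assembly factor RRS1 (adjusted p = 0.212 by edgeR's test), -0.64 for the mitochondrial chaperonin subunit HSPE1 (adjusted p = 0.138), -0.62 for the telomerase subunit TERT (adjusted p = 0.554) and 0.57 for the translation initiation helicase EIF4A1 (adjusted p = 0.418).

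With Dox, 21 of the 34 were positive and 13 negative, with a median of 0.044 beside 0.0049 over all genes. In this fit 1 was called higher and 1 lower by edgeR's test. ODC1, the first enzyme of polyamine synthesis and a classic MYC target, rose by 0.22 on the log2 scale (SE 0.055, adjusted p = 0.0294) and was higher in 4 of 4 lines. EIF4A1 fell by 1.08 (adjusted p = 0.00704), with log2 ratios of -0.31 to -1.95 in 4 of 4 lines. The counting intervals of K450R (-1.07 to 0.074) and K450RK451R (-0.85 to 0.23) included 0. Its counts were low, at 215, 60, 68 and 59 with Veh in WT, K450R, K451R and K450RK451R. With Dox they were 54, 49, 26 and 62. Overlap with other annotated genes was read for the members only. Whether EIF4A1 or other list genes share reads with a neighbour was therefore not checked. Neither call held in every fit with 1 line left out: that of ODC1 was lost without K450R, K451R or K450RK451R (adjusted p = 0.109, 0.262 and 0.134) and that of EIF4A1 without WT or K451R (0.0672 and 0.0736). Spermidine synthase, SRM, was 0.33 higher and higher in 4 of 4 lines without passing the test (adjusted p = 0.0772). The ribosome biogenesis genes BOP1 (0.54) and NOP16 (0.33) were also higher in 4 of 4 lines, with adjusted p-values of 0.309 and 0.271 by edgeR's test. BOP1 had only 21 to 62 counts per condition. IMPDH2 was higher in 4 of 4 lines too, by a log2 ratio of at most 0.066. In the other direction, GNL3 (-0.18), NPM1 (-0.082) and PPAN (-0.25) of the same list were lower in 4 of 4 lines. Their adjusted p-values by edgeR's test were 0.0816, 0.544 and 0.643. The share of all genes with the same sign in 4 of 4 lines was not computed, so such agreement is a description wherever it is given.

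**Figure D4:**
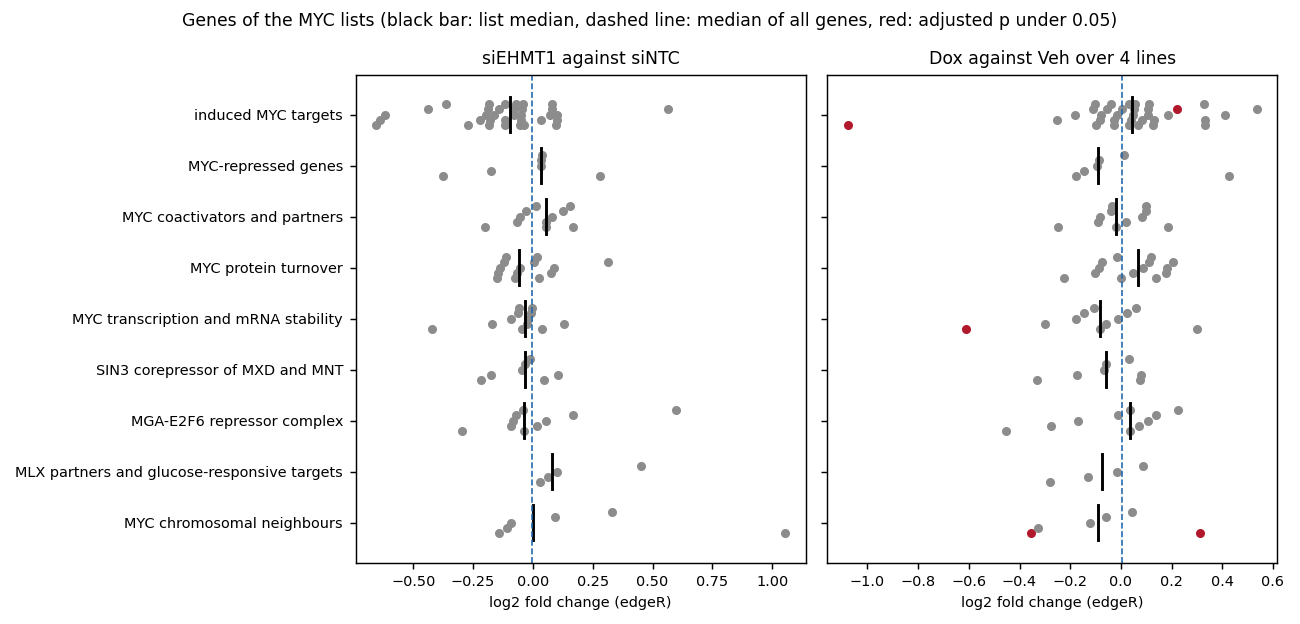
Log2 fold change (edgeR) of each tested gene of 9 lists with siEHMT1 (left) and with Dox over 4 lines (right), 1 point per gene, with black bars for list medians, a dashed line for the median of all genes and red for an adjusted p under 0.05. No list gene is red on the left and 5 are red on the right, with the induced MYC targets shifted slightly left of the dashed line with silencing.

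Of 7 genes that MYC is known to repress, 6 were tested and 0 called in either edgeR fit. Their medians were 0.033 with siEHMT1 and -0.091 with Dox, and the largest siRNA values were -0.38 for the CDK inhibitor gene CDKN2B and 0.28 for the stress gene GADD45A. Among 11 coactivators and partners of MYC, 0 were called, with medians of 0.053 and -0.019. The transcriptional coregulator HCFC1 (-0.20) and the SWI/SNF subunit SMARCB1 (0.17) had the largest values with siEHMT1.

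None of 14 genes of MYC protein turnover was called, with medians of -0.060 and 0.066. KIAA1524, whose product shields MYC from the phosphatase PP2A, read -0.15 with siEHMT1. Of 14 genes of MYC transcription and mRNA stability, 12 were tested with siEHMT1 and 11 with Dox. HNRNPD, the RNA-binding protein AUF1 that acts on AU-rich mRNAs such as that of MYC, was called lower with Dox by 0.61 on the log2 scale (adjusted p = 0.0129 by edgeR's test), with a negative ratio in 4 of 4 lines. The call was lost without K450R, K451R or K450RK451R (adjusted p = 0.0738, 0.166 and 0.0629). It read -0.0037 with siEHMT1.

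In the SIN3 corepressor that MXD and MNT recruit, 0 of 7 genes were called, and HDAC2 (-0.22) and NCOR1 (-0.18) had the largest siRNA values. In the MGA-E2F6 complex 0 of 10 were called. YAF2, a subunit of this complex, read 0.60 with siEHMT1 (adjusted p = 0.529 by edgeR's test) and E2F6 read -0.30 there, while EHMT2, the paralog of EHMT1, read -0.090 and -0.011. Among the 4 MLX partners and glucose-responsive targets, 0 were called, and the arrestin-like gene ARRDC4 (0.45) and the MLX partner gene MLXIPL (0.10) had the largest siRNA values.

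MYCL, the remaining MYC paralog and not one of the 10, read 10.8 and 14.5 CPM in siNTC and 17.8 and 15.7 CPM in siEHMT1. Its log2 fold change was 0.44, opposite in sign to that of MYC, and it did not pass edgeR's test (adjusted p = 0.482). With Dox its log2 ratios ran from -0.43 in WT to 0.81 in K450RK451R (adjusted p = 0.583 for the shared effect of 0.24).

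The genes around MYC on its chromosome did not follow it as a group. Of 7, 6 were tested and 0 were called with siEHMT1. With Dox, FAM84B rose by 0.31 on the log2 scale (adjusted p = 0.0239 by edgeR's test) and TRIB1, which encodes a pseudokinase, fell by 0.35 (adjusted p = 0.0299). The call of FAM84B was lost without K450R or K451R (adjusted p = 0.238 and 0.184) and that of TRIB1 without K450R, K451R or K450RK451R (0.0682, 0.350 and 0.114). PVT1, the long noncoding RNA gene next to MYC, read 0.094 with siEHMT1 and -0.057 with Dox. Furthest from 0 with siEHMT1 were POU5F1B at 1.05 (SE 0.477, adjusted p = 0.516 by edgeR's test) and PCAT1 at 0.33 (adjusted p = 0.218). Both were opposite in sign to MYC, and of the 6 genes tested 3 were positive and 3 negative.

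Over the 10 condition means, each table centred on its own mean, the 10338 well-counted genes were ranked by Pearson correlation with MYC. Highest were BRCA1 (0.969), the DNA repair gene, UCK2 (0.965), a uridine-cytidine kinase, the ciliary gene KIAA0586 (0.962), PPRC1 (0.961), a PGC-1-related coactivator, and RP11-379H18.1 (0.961). BRCA1 read 57.3 and 54.0 CPM in siNTC, 44.8 and 51.7 CPM in siEHMT1, 19.4, 21.2, 26.0 and 26.4 CPM with Veh and 25.0, 26.1, 32.4 and 32.1 CPM with Dox. These points share libraries, depth and, in 8 of 10, the Dox design, and the order is a description. The 5 names were not stable: 0 of them stood in the top 5 by Spearman correlation, and 2 did over the 8 stable-line conditions alone. Among the members, the correlation with MYC was -0.86 for MXD1, -0.69 for MLX and MXI1, 0.69 for MXD4, -0.66 for MNT, -0.49 for MXD3, -0.47 for MAX and 0.39 for MGA. Counted from the highest of the 10338 genes, MXD4 ranked 1011, MXI1 9390, MLX 9394 and MXD1 10086. Many other genes thus had values as far from 0.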

How the data were processed

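RNA-seq was performed in 20 LNCaP samples. The authors deposited raw counts per Ensembl gene in 2 tables, from 51-nt single-end reads of stranded total RNA libraries mapped to hg19. The submitters' processing notes name FastQC 0.11.9, STAR 2.7.2 and featureCounts 1.6.4, while the annotation release and strand setting are not given in the sources used here. Groups came from the sample labels.

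The members and lists were chosen with earlier results of these data known. Paired stable-line columns were summed, since a chi-square of their counts (genes with 20 or more in sum) was at the level of counting noise. Counts were filtered with filterByExpr, scaled by TMM within each table and tested by edgeR's quasi-likelihood method with Benjamini-Hochberg adjustment (R 4.3.3, edgeR 4.0.16, limma 3.58.1, DESeq2 1.42.0), with line as a term for Dox. Ratios within a line have exact binomial 95% intervals that cover counting error only. Likeness to MYC used log2(CPM + 0.5) of genes averaging 50 counts or more. Lengths came from GENCODE release 44 on GRCh37.

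Named genes were all members, EHMT1, the 5 genes most like MYC and, from each list, the genes called in either fit or else the 2 with the largest siRNA change. The result of 1 gene named by this rule is not reported here. RRS1, HSPE1, TERT, SRM, BOP1, NOP16, IMPDH2, GNL3, NPM1, PPAN, EHMT2, PVT1, POU5F1B, PCAT1 and the HIF targets were chosen after their values were seen. The procedures were tested on simulated data. Alternatives were DESeq2, limma-voom, other normalizations and filters, unsummed columns, a replicate block and leaving out samples or lines.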

Additional observations from a re-analysis of the deposited data

Results flagged for a closer look

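MXI1 drew attention because its Dox response had opposite signs in the WT and mutant lines. The log2 ratio of Dox to Veh was 0.10 in WT, -0.098 in K450R, -0.22 in K451R and -0.49 in K450RK451R, and no counting interval included 0. A test of the mutant lines against WT, added after these values had been seen, gave a difference of -0.38 (SE 0.127) that was not called (adjusted p = 0.474 by edgeR's quasi-likelihood test). Differences among the 3 mutant lines were not tested, since each condition is 1 sample.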

How the results depend on the processing

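Over 11 alternatives the log2 fold change of MYC stayed between -0.33 and -0.23 with siEHMT1 and between 0.41 and 0.51 with Dox over the 4 lines. Members called with siEHMT1 stayed at 0. Small changes with siEHMT1 turned sign when 1 sample was left out: MLX ranged from -0.19 to 0.070 (above 0 without siNTC replicate 1 at 0.041, or siEHMT1 replicate 2), MGA from -0.37 to 0.050 (above 0 without siNTC replicate 1 at 0.00019, or siEHMT1 replicate 1), and MNT from -0.16 to 0.065 (above 0 without siEHMT1 replicate 1). Over the lines MGA ranged from -0.026 (without WT) to 0.077. Genes of the lists called with siEHMT1 went from 0 to 3 with no filter and to 1 to 4 with 1 sample left out. All genes called went from 18 to between 14 and 237 with siEHMT1 and from 286 to between 97 and 1977 with Dox.

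The deviations of same-numbered siRNA samples were hardly correlated (Pearson correlation -0.020). This value alone cannot decide whether the samples were paired. The replicate block called 99 genes, 3 list genes and 0 members with siEHMT1. Over the lines, 5 list genes became 3 with DESeq2, 19 with the 16 columns as samples, 17 with those columns and the replicate block, and 0 to 7 with 1 line left out. Members called there went from 0 to 4 with the 16 columns (MXD1, MXD4, MXI1 and MLX), to 4 with the replicate block added, and to 3 without the WT line. In the same order, these fits called 1977, 1867 and 472 of all genes, beside 286 in the main fit. With total count scaling the MYC log2 ratio was 0.75 in K451R and 0.69 in K450RK451R. Of the 5 genes most like MYC, 0 and 2 were shared with the Spearman ranking and with the stable lines alone. The difference between mutant lines and WT was called for 1 member, MXI1, without the K450R line. Except where the construction shows it (fewer samples, or columns that differ by counting noise only), the cause was not tested. Depth limits MXD1, MXD3 and MNT most, with 54 to 322 counts per sample.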
